A study of Rattus norvegicus with 42 samples.

Results

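The soleus muscle of rats that had walked freely for 7 days after 7 days of hindlimb unloading (R7) was compared with the soleus of control rats by cap analysis of gene expression (CAGE). The members of the comparison are all TSS peaks off chromosome MT, 9969 of the 9971 peaks of the series, measured in the 3 R7 libraries (rats U12, U13 and U19) and the 3 control libraries (rats U6, U7 and U8). Of these, 9840 passed the filter on low counts and were tested, and 129 did not pass it. The whole series has 42 libraries, from the soleus and the extensor digitorum longus (EDL) of 21 Wistar rats. The control rats were active and never suspended, with 0 days of unloading and 0 days of recovery. The R7 rats were hung by the tail for 7 days and then released. The other groups, also of 3 rats, were taken after 1, 3 or 7 days of unloading (D1, D3 and D7) and after 1 or 3 days of recovery from 7 days of unloading (R1 and R3). No rat belongs to more than 1 group, so every comparison of phases is between different animals.

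The soleus is a postural, slow-twitch muscle that carries load whenever the animal stands, and it is known to waste when the hindlimbs are unloaded. Reloading after such a period is known to bring regrowth of the fibres together with damage, repair and the entry of other cells. CAGE reads the capped 5′ ends of RNAs, so each tag is taken as the start of 1 RNA, and a TSS peak is a cluster of such starts on 1 strand. Whether each peak is a separate place where transcription begins was not tested. A gene can have several peaks, and the peaks of a gene need not move together.

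Soleus control libraries held 7799116 to 16652474 tags and R7 libraries 5198169 to 11585619, with the lowest total in U19. The share of tags inside the peaks was 72.4% in control U7 and 83.1% in R7 U19, and 91.3% to 93.6% in the other 4 libraries. All 6 libraries correlated more closely with the other soleus libraries than with the EDL libraries (mean r over 9238 peaks, 0.846 to 0.908 against 0.754 to 0.841). The R7 library of U19 stood apart from its group. Its mean correlation was 0.926 with the controls and 0.873 with the other R7 libraries, and its nearest library was control U7 (r = 0.931). The labels were used as given, and whether a sample was exchanged was not tested, so every R7 mean below that includes U19 rests on its label. The nearest libraries of U12 and U13 were R3 libraries, of U4 (r = 0.936) and U16 (r = 0.947). These correlations share the same set of peaks and are given as a description. By the library names the 3 control libraries were sequenced in lane 1, U12 and U13 in lane 5 and U19 in lane 6, so lane and group cannot be told apart within the soleus. The same holds within EDL, where the controls were in lane 1 and the R7 libraries in lanes 5 and 6.

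At R7, 412 of the 9840 tested peaks (4.19%) were called, which needed a change of more than 2.38-fold in either direction besides an adjusted p under 0.05. Of them, 277 were higher (2.82%) and 135 lower (1.37%). In a fit of only the 6 R7 and control libraries, edgeR called 0 peaks (1765 at an unadjusted p under 0.05, lowest adjusted p = 0.0719). The median log2 fold change was 2.24 among the rises (median SE 0.54) and −1.67 among the falls (median SE 0.38), against 0.01 over all tested peaks. DESeq2 called 714 peaks (7.26%). Over the rises the median level went from 4.07 normalised CPM (counts per 1000000 tags, scaled for composition; CPM from here on) in the controls to 17 CPM at R7, and over the falls from 15.9 to 4.91 CPM. The tissue was whole muscle, so fewer cells of a type and less RNA per cell cannot be told apart. The plot of group means shows that calls occurred at every level, from peaks below 1 CPM in the controls to peaks above 500 CPM.

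**Figure D1:**
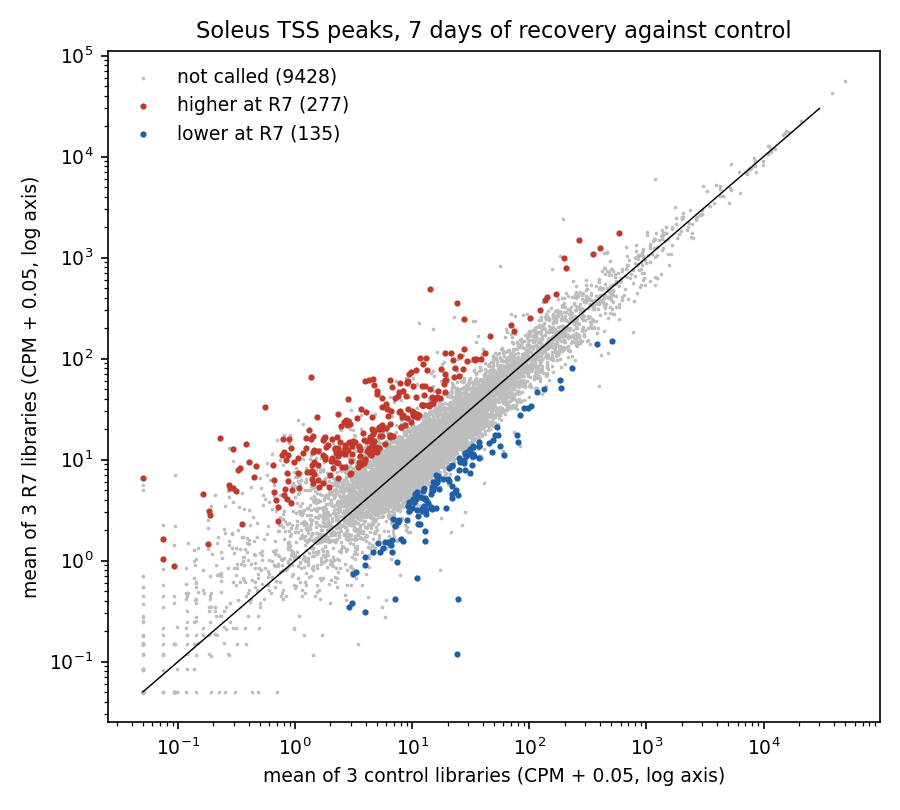
Mean level of each tested soleus TSS peak in the 3 control libraries (x axis) and the 3 R7 libraries (y axis), in normalised CPM plus 0.05 on log axes. The 277 peaks called higher (red) lie above the diagonal and the 135 called lower (blue) lie below it, and the 9428 peaks not called are grey.

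The 3 rats at R7 did not contribute alike to these calls. U12 and U13 lay beyond every control library in all 277 rises and all 135 falls. U19 lay above every control in 183 of the rises (66.1%) and below every control in 131 of the falls (97.0%). The groups therefore did not overlap in 183 rises and 131 falls. Among all tested peaks they did not overlap in 23.8%, with every R7 library above every control in 11.4% and below in 12.4%. The most changed R7 library was U12 in 166 rises, U13 in 77 and U19 in 34. U19 was the least changed in 211 rises and in 89 falls. Its median ratio to the control mean was 1.72 over the rises, against 5.92 in U12 and 4.54 in U13. Over the falls these ratios were 0.373 in U19, 0.229 in U12 and 0.292 in U13. All 3 R7 rats were at 2 times the control mean or more in 36.1% of the rises, and at 0.5 times or less in 74.8% of the falls. Without U19 the fit called 1041 peaks, of which 388 were among the 412. Without U12 it called 86 peaks, without U13 136, and without control U6, U7 or U8 57, 126 and 206. The balance of directions turned without U6 (24 higher and 33 lower) and without U7 (52 and 74), and was 107 and 99 without U8. With the lane as a block in a fit over all 42 libraries no peak was called by edgeR (442 at an unadjusted p under 0.05), where the same fit without the lane called 434. The median SE was 0.817 with the lane and 0.369 without it. The lanes of the control and R7 soleus libraries are linked only through EDL libraries, so lane and group are poorly told apart there too.

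When peaks of a strand were joined over gaps of at most 20 kb, 87 of the 412 fell into 34 runs of 2 or more and the other 325 stood alone, which makes 359 loci. Of the runs, 26 held only higher peaks, 8 held only lower peaks and 0 held both. Only called peaks were joined, so these counts have no reference over all tested peaks. Whether the peaks of a run belong to the same RNA was not tested. Within 2000 nt on the same strand 64 of the 277 rises had another tested peak, and this neighbour was called higher in 34 of them and lower in 0. Of 31 falls with such a neighbour, it was called lower in 12 and higher in 0. Over all tested peaks with a neighbour (2086), 62 neighbours were called higher and 33 lower. A peak starting divergently on the other strand within 500 nt lay beside 6 of the rises (2.17%), 3 of the falls (2.22%) and 5.65% of all tested peaks.

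The 10 largest rises came from 5 loci. They were chosen among called peaks whose groups did not overlap and whose mean was at least 10 CPM in either group, which 132 rises and 100 falls met. The largest called rise of all, with a log2 fold change of 9.13, did not meet this rule. Peaks are given by position on Rnor_6.0, with the strand.

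The largest rise that met it was at chr5:79874432-79874568 on the minus strand. It had 0, 0.129 and 0.403 CPM in controls U6, U7 and U8, which is 0, 1 and 3 tags. At R7 it had 34.6 CPM in U12, 11.9 in U13 and 2.07 in U19. Every R7 library was above every control, which the rule required, and U12 was more than 10 times as high as U19. The log2 fold change was 6.69 (SE 1.21, adjusted p = 0.00945), and the call held in 5 of the 6 fits without 1 library, failing without control U6 (adjusted p = 0.0526). The peak stayed at 0.486 CPM or less on average during unloading and reached 10.2 ± 0.469 CPM (SD, n = 3) at R1 and 6.15 ± 6.45 at R3. It did not pass the filter in EDL.

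A locus of 8.72 kb on the minus strand of chromosome 1 (chr1:254727031-254735753) held the next 3 rises, and all 3 of its tested peaks were called. The main peak, at chr1:254735508-254735753, had 25.8, 3.21 and 12.9 CPM in the controls and 380, 669 and 428 CPM in U12, U13 and U19. Here U19 was as high as the other R7 rats, and the lowest R7 value lay far above the highest control. The log2 fold change was 5.12 (SE 0.83, adjusted p = 0.00454), and the call held without any 1 of the 6 libraries. With lane as a block the log2 fold change was 2.53 and the peak was not called. The peak at chr1:254734955-254735094 rose from 0.329 ± 0.341 to 14.1 ± 7.00 CPM (log2 fold change 5.2, SE 1.07). The peak at chr1:254727031-254727833 rose from 0.743 ± 0.621 to 15.9 ± 9.13 CPM (4.30, SE 0.90). These 2 calls held in 5 and 3 of the 6 fits, and with lane as a block the log2 fold changes were 8.94 and 0.57. The summed level of the locus was 15 ± 12.2 CPM in controls and between 2.89 and 4.12 CPM on average at D1, D3 and D7. It was 562 ± 192 CPM at R1, 216 ± 154 at R3 and 522 ± 168 at R7. In EDL the sum was 9.18 ± 7.24 CPM in controls and 10.3 ± 7.76 at R7.

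On the plus strand of chromosome 10, a locus of 8.06 kb (chr10:53635788-53643843) held 9 tested peaks, of which 7 were called higher. The log2 fold change was above 0 in all 9 and lay between 3.17 and 4.28. Its highest peak at R7 among the named ones, at chr10:53641067-53641189, had 0.723, 1.03 and 2.69 CPM in the controls and 31.2, 43.8 and 4.14 CPM in U12, U13 and U19 (log2 fold change 4.21, SE 0.86, adjusted p = 0.0139), and was called in 3 of the 6 fits. U19 was above the controls, which the rule required, but by a much smaller step than U12 and U13. The summed level was 5.06, 11.7 and 14.6 CPM in the controls and 134, 252 and 26.9 CPM at R7. This locus differed in its course from the one on chromosome 1. Its sum was 3.72 ± 2.24 CPM at D7 and 0.899 ± 0.526 at R1, all 3 R1 rats being below all 3 controls. It was 41.0 ± 40.8 CPM at R3 and 138 ± 113 at R7. In EDL 3 of the 9 peaks passed the filter, with a sum of 22.2 ± 3.16 CPM in controls and 15.2 ± 6.31 at R7. A further 3 peaks of this locus are among the 10 largest rises, at chr10:53636857-53636988 (4.28, SE 1.01), chr10:53637914-53638263 (4.01, SE 1.13) and chr10:53638398-53638488 (3.91, SE 0.99). Each of these was called in only 1 of the 6 fits that left out 1 library, and with lane as a block the latter 2 changed sign (−3.93 and −1.63).

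The other 2 of the 10 largest rises were far higher in U12 and U13 than in U19. At chrX:104733999-104734166 on the plus strand the controls had 0.434, 0.643 and 1.07 CPM and the R7 rats 25.8, 5.93 and 1.18 CPM (log2 fold change 3.98, SE 0.83, adjusted p = 0.0141). At chr2:184899849-184900090 on the plus strand the controls had 4.19, 2.19 and 5.24 CPM and the R7 rats 47.9, 125 and 5.62 CPM (3.95, SE 0.89, adjusted p = 0.0204). In both, U19 was only just above the highest control, which the rule required it to exceed. Without U12 the first had a log2 fold change of 2.39 (adjusted p = 0.102), and without U13 the second had 2.82 (adjusted p = 0.0683). Their calls held in 3 and 2 of the 6 fits that left out 1 library, and with lane as a block the second changed sign (−1.21). The run on chromosome 2 held a second called peak, and the summed level of the pair went from 4.67 ± 1.09 to 66.9 ± 66.6 CPM.

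**Figure D2:**
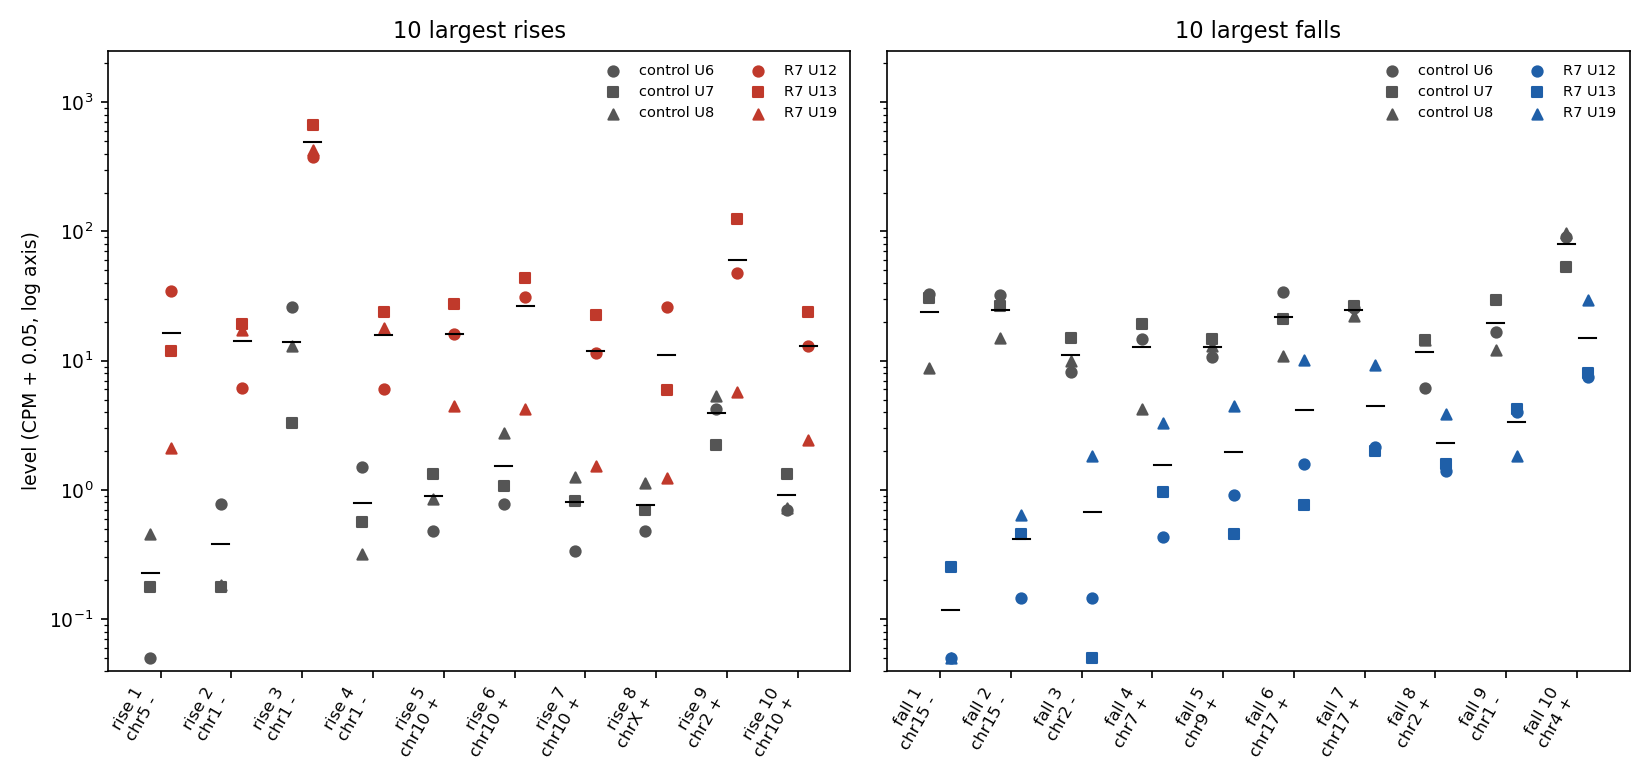
Level of the 10 largest rises (left) and the 10 largest falls (right) in each soleus library, in normalised CPM plus 0.05 on a log axis. Grey symbols are controls U6, U7 and U8, coloured symbols are R7 rats U12, U13 and U19, and bars are group means. U19 (triangles) lies nearest to the controls in most rises other than those of chr1.

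The strongest rises by level, 5 peaks, changed less but over many more tags. The strongest, at chr3:53633317-53642698 on the plus strand, was 9382 nt wide, where the median tested peak had 208 nt. It had 515, 666 and 579 CPM in the controls and 686, 2979 and 1587 CPM at R7 (log2 fold change 1.58, SE 0.45, adjusted p = 0.0451). The peak at chr3:53563136-53563356, on the same strand, had 386, 265 and 559 CPM in controls and 689, 2276 and 751 CPM at R7 (1.62, SE 0.42). In both, U13 was far above U12 and U19, and without U13 neither was called, with log2 fold changes of 0.95 and 0.84. Their calls held in 2 and 3 of the 6 fits, and with lane as a block their log2 fold changes were 0.40 and 0.14. The reverse was seen at chr7:120152894-120153199 on the plus strand, where U12 was highest, with 296, 374 and 382 CPM in the controls and 1794, 1080 and 395 CPM at R7 (1.64, SE 0.38). Its call held in 1 of the 6 fits without 1 library, and the log2 fold change was 1.07 without U12 (adjusted p = 0.141). At chr3:105512810-105513096 on the minus strand the controls had 337, 111 and 346 CPM and the R7 rats 2065, 2008 and 446 CPM (2.51, SE 0.57), and the call held in 2 of the 6 fits. This peak led a run of 7 tested peaks, 4 of them called higher, whose sum went from 288 ± 139 to 1579 ± 953 CPM.

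The tightest of the strong rises was at chr16:6962574-6963118 on the plus strand. The controls had 169, 161 and 257 CPM and the R7 rats 919, 964 and 1061 CPM, so that all 3 rats, U19 included, were at nearly the same level. The log2 fold change was 2.32 (SE 0.46, adjusted p = 0.0134), and the call held in 4 of the 6 fits, failing without control U6 or U7. The whole locus, with 4 tested peaks of which 3 were called, stood at 208 ± 54.0 CPM in controls, 2723 ± 737 at R1, 1064 ± 601 at R3 and 1037 ± 86.0 at R7. In EDL the same sum was 187 ± 10.9 CPM in controls and 133 ± 69.6 at R7.

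A further 4 of the 11 runs with 3 or more called peaks held rises. On chr18:29330042-29340508, minus strand, the sum of 4 tested peaks was 0.968 ± 0.215 CPM in controls, 168 ± 123 at R1, 6.0 ± 2.25 at R3 and 13.8 ± 4.83 at R7. U19, with 16.6 CPM, was at the level of U13 (16.7 CPM) there and above U12 (8.25 CPM). On chr1:104147252-104157927, minus strand, the sum of 5 peaks was 13.1 ± 2.05 CPM in controls and 26.8, 37.5 and 102 CPM in U12, U13 and U19, so that U19 was the highest rat. On chr15:4068255-4072403, plus strand, the sum of 4 tested peaks, 3 of them called, went from 97.2 ± 33.2 to 355 ± 211 CPM. Most of this sum came from the peak that was not called, at chr15:4069082-4069615. That peak went from 70.2 ± 31.7 to 277 ± 182 CPM (adjusted p = 0.0635 by edgeR). In unloading the sum was 15.1 ± 3.76 CPM at D1, 18.7 ± 7.62 at D3 and 12.8 ± 2.27 at D7. On chr3:113257618-113266757, plus strand, the sum of 3 peaks, all called, went from 26.3 ± 12.9 to 115 ± 59.2 CPM. The groups did not overlap in any of these 4 sums. They did overlap in the sums of 2 runs on chromosome 17 with 4 called rises each. At chr17:44758371-44766340, plus strand, the controls summed to 7.01, 14 and 31.2 CPM and U12, U13 and U19 to 275, 96.9 and 10.9 CPM. At chr17:44815963-44841493, minus strand, the sums were 7.44, 11.8 and 16.7 CPM in the controls and 157, 68.3 and 9.47 CPM at R7, so that U19 lay among the controls in both.

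Chromosome 17 stood apart in the share of rises. It held 29 higher peaks among 318 tested (9.12%), where the other chromosomes with rises had 1.49% to 3.88%. An interval of 1.23 Mb, chr17:43616154-44841493, chosen after its values were seen, held 21 of these 29. It has 43 tested peaks, 22 on the plus strand and 21 on the minus strand, and 14 and 7 of them were called higher. The log2 fold change was above 0 in 42 of the 43, with a median of 2.62. Outside the interval 8 of 275 peaks of the chromosome were higher (2.91%).

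**Figure D3:**
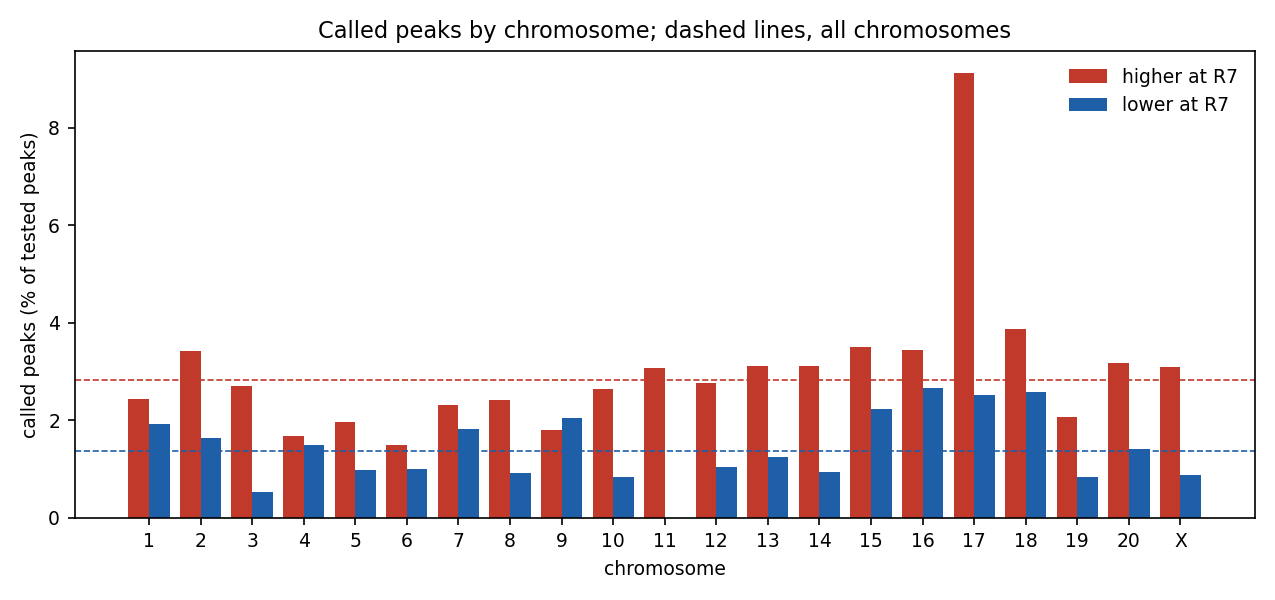
Share of the tested soleus peaks of each chromosome (x axis) that was called higher (red bars) or lower (blue bars) at R7, in percent. Dashed lines give the shares over all chromosomes, 2.82% and 1.37%. Chromosome 17 reaches 9.12% higher, and chromosome Y, with 2 tested peaks and 0 called, is left out.

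In soleus the rise in that interval was that of 2 rats. The summed level of the 43 peaks was 517, 650 and 856 CPM in controls U6, U7 and U8. It was 4125 CPM in U12, 2081 in U13 and 836 in U19, which lies within the range of the controls. The groups did not overlap in 7 of the 43 peaks, where they did not overlap in 23.8% of all tested peaks. For instance, at chr17:43807463-43807608 on the minus strand the controls had 10.9, 16.5 and 29.3 CPM and the R7 rats 234, 94.4 and 13 CPM (log2 fold change 2.6, SE 0.69, adjusted p = 0.0360). An exception was chr17:43673158-43673342 on the plus strand, with 77.8, 107 and 120 CPM in the controls and 289, 271 and 198 CPM at R7 (1.31, SE 0.31, adjusted p = 0.0224). The number of calls in the interval was 36 without U19, 0 without U12 and 2 without U13, and it was 0 without control U6 or U7 and 9 without U8. The mean sum of the D1 rats was 1147 ± 244 CPM and of the D7 rats 771 ± 178. In recovery the means were 1346 ± 409 CPM (R1), 2153 ± 676 (R3) and 2347 ± 1661 (R7). In EDL the sum of the 41 peaks tested there was 551 ± 33.4 CPM in controls (537, 589 and 527). At R7 it was 919 ± 299 CPM, with 1234, 886 and 638 CPM in U12, U13 and U19. All 3 R7 rats were thus above every control in EDL. Of the 41 peaks, 39 were above 0 on the log2 scale. An unadjusted p under 0.05 by edgeR was seen in 3 of them, and in 408 of all 9343 peaks tested in EDL (4.37%).

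**Figure D4:**
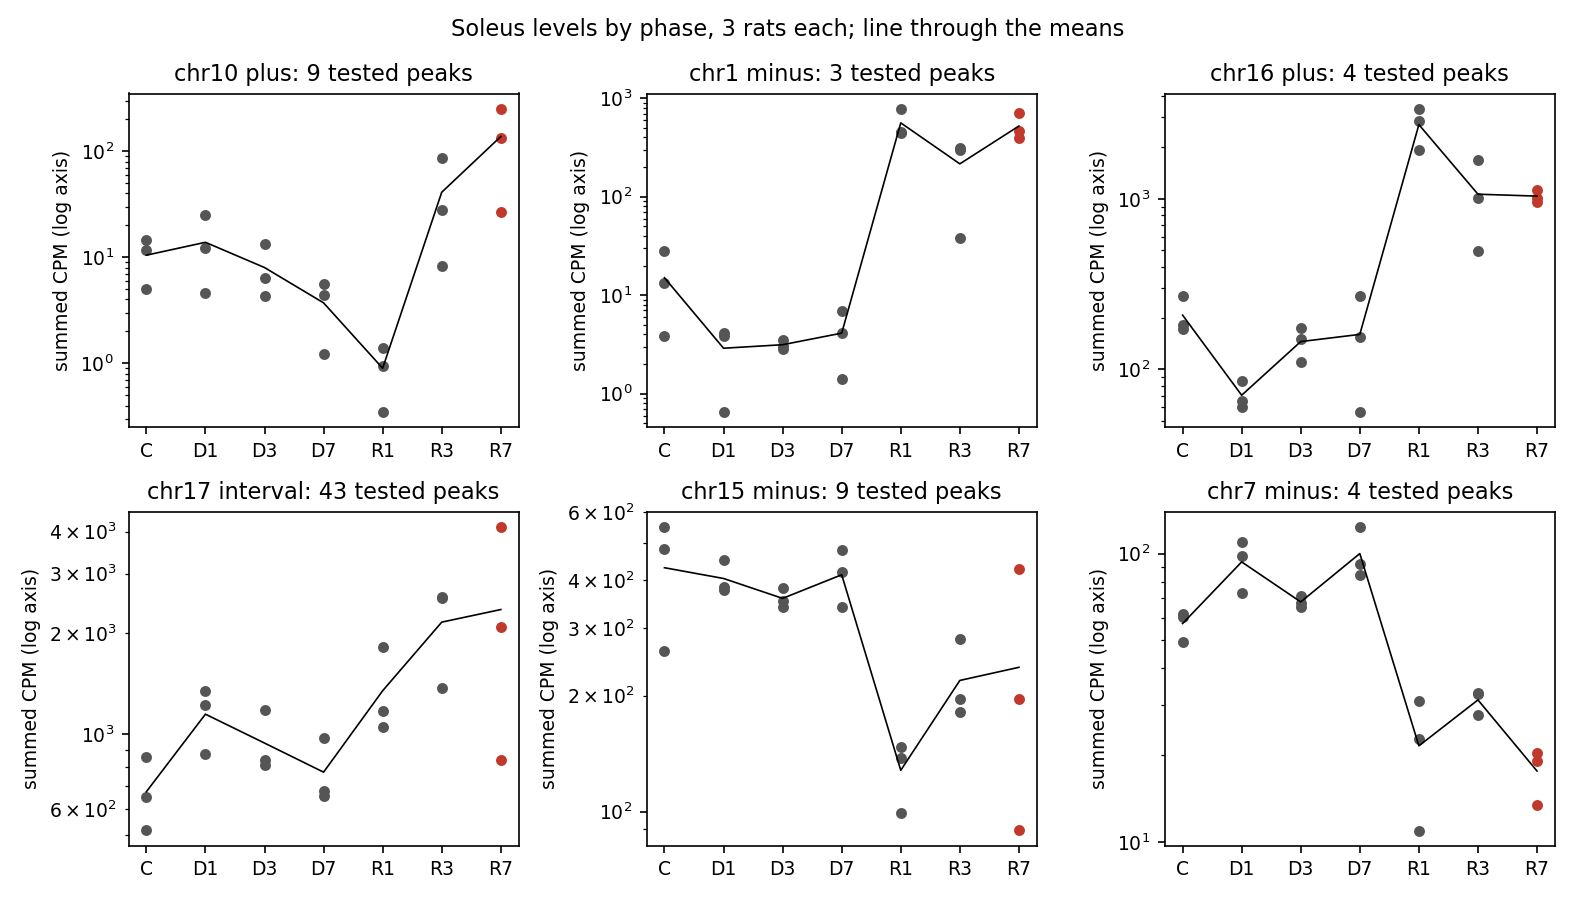
Summed level of the tested peaks of 6 loci in soleus (normalised CPM, log axis, y axes differ) by phase (C, control, then D1 to R7), with a point for each of 3 rats, R7 in red, and a line through the means. The chr10 locus is at its lowest at R1, whereas the chr1 and chr16 loci are at or near their highest there, and the R7 rats lie far apart in the chr10 locus and the chr17 interval.

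Among the falls, the 2 largest lay 10 kb apart on the minus strand of chromosome 15. The peak at chr15:33617658-33617732 had 32.5, 30.2 and 8.73 CPM in the controls and 0, 0.204 and 0 CPM in U12, U13 and U19, where the R7 libraries hold 2 tags in all against 749. The ratio of control to R7 was 304 (95% exact interval 83.9 to 2515, counting error only), and the fitted log2 fold change was −7.96 (SE 2.32, adjusted p = 0.0489). The call did not hold in any of the 6 fits without 1 library. The peak at chr15:33627767-33627846 had 32.3, 26.4 and 14.9 CPM in the controls and 0.0959, 0.409 and 0.592 CPM at R7 (−6.27, SE 1.60, adjusted p = 0.0313), and its call held in 2 of the 6. Both are short, of 75 and 80 nt, and neither passed the filter in EDL. Near-absence was not limited to R7: the first peak was at 0.129 CPM in U25 (D1), 0 in U11 (D3), 0 in U20 (R1), and 0.124 and 0.274 in U5 and U16 (R3), with 5.50 to 32.4 CPM in the other rats of these phases. The second peak was below 1 CPM in the same 5 rats. At D7 the first peak had 20.6, 10.9 and 12.3 CPM.

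The peaks between these 2 were lower too, but changed less. Of the 9 tested peaks from chr15:33617658 to 33627846, the other 7 were not called and had log2 fold changes from −1.26 to −0.31. The strongest of them, at chr15:33618325-33618541, had 199, 251 and 111 CPM in the controls and 40.7, 88.6 and 247 CPM in U12, U13 and U19 (−0.58, SE 0.48, adjusted p = 0.481). U19 was thus among the controls at this peak, while it was as low as U12 and U13 at the 2 called ones. The nearest of the 7 to a call was chr15:33617914-33618118 (−1.26, SE 0.37, adjusted p = 0.0503). It had 117, 119 and 58.2 CPM in the controls and 17.6, 46.0 and 60.7 CPM in U12, U13 and U19. The sum over the 9 peaks was 430 ± 150 CPM in controls and 237 ± 172 at R7.

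The third largest of the named falls was at chr2:266275441-266275666 on the minus strand. It had 8.17, 14.9 and 9.94 CPM in the controls and 0.0959, 0 and 1.78 CPM at R7 (log2 fold change −4.96, SE 1.14, adjusted p = 0.0205). Its level was not uniform in unloaded muscle, with 1.90 ± 1.96 CPM at D1, where all 3 rats were below every control, 18 ± 12.1 at D3 and 53.9 ± 11.3 at D7. In recovery it was 11.1 ± 3.77 CPM at R1 and 3.68 ± 2.99 at R3, and the call held in 2 of the 6 fits without 1 library. The peak at chr9:49938079-49938511, plus strand, also had a lower mean at D1 than at D7. It had 10.6, 14.5 and 12.9 CPM in the controls, 6.76 ± 5.08 at D1, 22.0 ± 6.77 at D7 and 0.863, 0.409 and 4.44 CPM at R7 (−3.09, SE 0.65, adjusted p = 0.0155). At chr17:76511386-76511662, plus strand, the controls had 25.4, 26.4 and 22.0 CPM, the D1 rats 7.28 ± 5.65, the D7 rats 32.6 ± 8.61 and the R7 rats 2.11, 1.94 and 9.17 CPM (−2.65, SE 0.61, adjusted p = 0.0221). These calls held in 4 and 2 of the 6 fits. With lane as a block the peaks at chr2:266275441 and chr17:76511386 changed sign (0.54 and 0.52). In each of these 3 peaks U19 was the highest R7 rat. That it lay below the lowest control was required by the rule for named peaks.

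Falls of other loci had other courses before R7. At chr1:164143784-164143910, minus strand, the controls had 16.6, 29.6 and 12 CPM and the D1 rats 91.3 ± 44.5 on average. The R7 rats had 3.93, 4.19 and 1.78 CPM, so that U19 was the lowest (log2 fold change −2.48, SE 0.45, adjusted p = 0.00963). The call held without any 1 of the 6 libraries. At chr4:14002946-14003254, plus strand, the controls had 91.1, 53.4 and 96.6 CPM and the R7 rats 7.48, 7.97 and 29.6 CPM (−2.47, SE 0.47, adjusted p = 0.0117). This peak was at 116 ± 6.73 CPM at D1, 28.4 ± 18.3 at D3 and 13.7 ± 2.52 at R3, and a second peak of its run was called lower too. The call held in 5 of the 6 fits, failing without U12.

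The remaining 3 of the 10 largest falls spread more widely. At chr7:118130302-118130443, plus strand, the controls had 14.5, 19.3 and 4.16 CPM and the R7 rats 0.384, 0.920 and 3.26 CPM (−3.36, SE 0.79, adjusted p = 0.0224). At chr17:32973400-32973893, plus strand, the controls had 33.8, 21.1 and 10.7 CPM and the R7 rats 1.53, 0.715 and 10.1 CPM (−2.67, SE 0.74, adjusted p = 0.0418). In these 2 the gap between U19 and the lowest control, U8, was narrow. At chr2:196094719-196094813, plus strand, the controls had 6.07, 14.3 and 14.4 CPM and the R7 rats 1.34, 1.53 and 3.85 CPM (−2.51, SE 0.52, adjusted p = 0.0139). The calls held in 2, 2 and 4 of the 6 fits without 1 library, and each failed without U12 or U13.

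The 5 strongest falls by level went down by 2.72-fold to 3.66-fold. At chr16:22561253-22561765 on the minus strand the controls had 459, 514 and 540 CPM and the R7 rats 82.7, 139 and 225 CPM (log2 fold change −1.76, SE 0.28, adjusted p = 0.00415). At chr7:98098003-98098663, minus strand, the controls had 165, 139 and 256 CPM and the R7 rats 55.8, 50.5 and 46.5 CPM (−1.87, SE 0.31, adjusted p = 0.00596). The SD of the 3 R7 rats was 4.70 CPM at this peak, the smallest of the 5. At chr2:52282206-52283136, minus strand, the mean fell from 229 ± 33.1 to 80.2 ± 28.7 CPM (−1.52, SE 0.27). These 3 calls held without any 1 of the 6 libraries. The other strong falls were chr17:77304358-77304736, minus strand, from 381 ± 64.7 to 140 ± 65.1 CPM (−1.44, SE 0.28), and chr10:13797380-13797804, plus strand, from 182 ± 30.3 to 60.9 ± 28.2 CPM (−1.59, SE 0.37). Each of these was called in 3 of the 6 fits, and not without U6, U12 or U13.

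The only run of 3 or more falls was on the strand of, and near, the strong fall on chromosome 7. Its 4 peaks cover 4.70 kb on the minus strand (chr7:98060753-98065447) and all were called, with log2 fold changes from −2.07 to −1.36. The sum was 61.8, 60.3 and 49.6 CPM in the controls and 13.4, 19.1 and 20.4 CPM in U12, U13 and U19, so the groups were well apart and U19 lay with the other R7 rats. Its mean was 93.5 ± 18.7 CPM at D1 and, in recovery, 21.6 ± 10 CPM at R1 and 31.1 ± 3.04 at R3. In EDL it was 19.6 ± 4.27 CPM in controls and 20.2 ± 9.24 at R7.

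Wider peaks held a larger share of falls, while the share of rises was nearly even; neither trend was tested. Among tested peaks of up to 100 nt, 0.38% were lower at R7, among those above that and up to 300 nt 1.23%, and among wider ones 2.15%. The shares of higher peaks in these classes were 2.52%, 2.88% and 2.81%. The median width was 269 nt among the falls and 217 nt among the rises. By level, 17 rises and 5 falls were among the 860 peaks with a mean of 100 CPM or more, which is 1.98% and 0.58% of them.

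The called peaks were followed through the other phases of the soleus, each set against the same 3 control libraries, which all these comparisons therefore share. The median log2 fold change of the 277 rises was 0.34 on day 1 of unloading, 0.23 on day 3 and −0.30 on day 7. In recovery it reached 1.68 after 1 day, 1.60 after 3 days and 2.24 after 7 days. For the 135 falls the medians were −0.23, −0.32 and 0.13 at D1, D3 and D7, and −1.07, −1.11 and −1.67 at R1, R3 and R7. Both sets of peaks were chosen by their change at R7, so their larger medians at R7 follow in part from that choice. The controls that helped to choose the peaks serve at every phase. Medians and calls of the same sign at the other phases can therefore also follow in part from the choice. During unloading some of the 412 peaks were called by edgeR at D1 and D3, in both directions. At D1, 2 of the R7 rises were called higher and 4 lower, and 5 of the R7 falls higher and 8 lower, with 110 of the 412 at an unadjusted p under 0.05. At D3 these counts were 1 and 3 of the rises and 0 and 2 of the falls, with 89 at an unadjusted p under 0.05. At D7, the state from which recovery began, 0 were called (58 at an unadjusted p under 0.05). Over all tested peaks 84 were called higher and 110 lower at D1, 41 and 31 at D3, and 7 and 5 at D7. At R1, 160 of the R7 rises were called higher and 6 lower, and 55 of the R7 falls were called lower and 0 higher. At R3 the counts were 64 higher and 26 lower. Of the 412, 286 at R1 and 312 at R3 had an unadjusted p under 0.05 by edgeR. The shares of all tested peaks at that unadjusted p are not given here for these phases. Over all tested peaks the numbers called were 1450 higher and 845 lower at R1, and 120 higher and 43 lower at R3.

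In the EDL of the same rats, a fast-twitch muscle of the hindlimb, 0 of 9343 tested peaks were called at R7 by edgeR, with 408 at an unadjusted p under 0.05 (4.37%) and 1 called by DESeq2. Of the soleus rises 236 were tested in EDL. Their median log2 fold change there was 0.57, above 0 in 194, and 27 were higher and 2 lower at an unadjusted p under 0.05. Of the falls 125 were tested, with a median of −0.28, below 0 in 95, and 16 were lower and 2 higher at an unadjusted p under 0.05. Over all 9236 peaks tested in both muscles the EDL median was −0.01, with 4569 above 0 and 4667 below, and 233 were higher and 159 lower at an unadjusted p under 0.05.

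**Figure D5:**
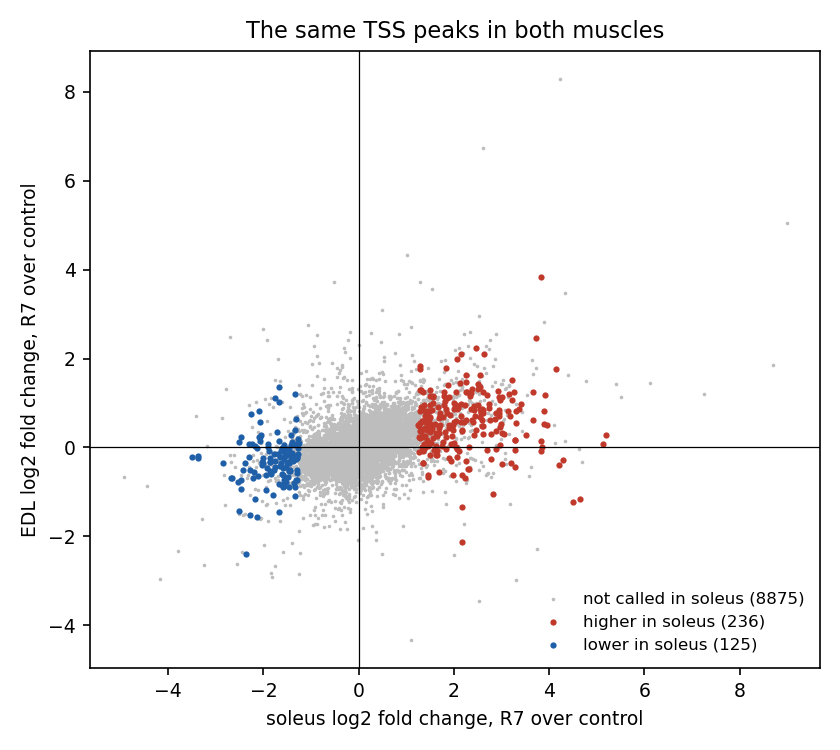
Log2 fold change of R7 over control in soleus (x axis) and in EDL (y axis) for the 9236 peaks tested in both muscles. The 236 soleus rises (red) have a median of 0.57 in EDL and the 125 soleus falls (blue) a median of −0.28, both nearer to 0 than in soleus. The coloured peaks were chosen by their soleus change, so this follows in part from the choice.

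An interaction term tested whether the change at R7 differed between soleus and EDL. It was called for 0 of 9945 peaks with edgeR, with 635 at an unadjusted p under 0.05 and a lowest adjusted p of 0.0564, and for 13 by DESeq2. Among the soleus rises the median difference (soleus minus EDL, log2) was 1.58, and it was above 0 in 270 of 277. Among the falls it was −1.51 and below 0 in 135 of 135. These signs follow in part from the choice of the peaks by their soleus change. The difference with the smallest adjusted p among the named peaks was at chr1:164143784-164143910, at −2.75 (SE 0.61, adjusted p = 0.139).

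The position of the starts within a peak is a readout that the counts do not use. The mean start position was compared for 4465 peaks with at least 30 tags in every soleus library. It differed at an adjusted p under 0.05 (limma) in 21 peaks (0.47%), toward the 3′ end in 11 and toward the 5′ end in 10, and 569 had an unadjusted p under 0.05. By another measure of start use, the share of tags at the most used control position, 0 of the same 4465 peaks were called by limma (443 at an unadjusted p under 0.05, lowest adjusted p 0.124), so the shifts that follow rest on the mean position. The shifts were small, between 3.06 and 98.3 nt with a median of 10.6 nt, against 1.39 nt in all peaks tested. In 10 of the 21 the most used start of the pooled libraries was the same in both groups, as it was in 82.4% of all peaks tested. Of the 21, 2 were also called on counts, as were 104 of the 4465 peaks tested.

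The largest shifts as a share of the peak's width are given by the distance of the mean start from the 5′ edge. At chr10:81839258-81839504, plus strand, 247 nt wide, it was at 133, 139 and 131 nt in the controls and 175, 165 and 165 nt at R7, a shift of 33.7 ± 6.83 nt (SE, adjusted p = 0.0360). At chr8:181274-181478, minus strand, it was at 112, 115 and 119 nt in the controls and 135, 132 and 135 nt at R7 (18.8 ± 3.49 nt). At chr3:8627371-8628087, plus strand, the shift was 58.2 ± 10.8 nt. In these peaks the 3 R7 rats lay together, U19 included, and beyond all controls.

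A peak on the minus strand of chromosome 15, chr15:33657581-33657899, had the smallest adjusted p (0.00356). Its mean start was at 160, 158 and 160 nt in the controls and 180, 182 and 170 nt at R7, a shift of 18.5 ± 2.32 nt, and the most used start did not change. Its count was not called (log2 fold change −0.88, adjusted p = 0.0838). It lies on the strand of the 2 largest falls. The fifth of the largest shifts toward the 3′ end, at chr13:99473043-99473180, plus strand, was 6.60 ± 0.94 nt in a peak that was also called higher (1.26, adjusted p = 0.00219).

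Toward the 5′ end the largest shift as a share of width was at chr7:98196857-98197196 on the minus strand. The mean start was at 198, 207 and 203 nt in the controls and 155, 161 and 172 nt at R7, a shift of −40.0 ± 7.59 nt (SE, adjusted p = 0.0297). This peak was also called lower (log2 fold change −1.87, adjusted p = 0.0170). At chr8:55176705-55178227, minus strand, 1523 nt wide, the mean start moved by −98.3 ± 17.1 nt. The next were chr12:23150790-23151200 (−20.5 ± 4.13 nt), chr3:61494141-61494344 (−9.65 ± 1.38 nt) and chr8:70789047-70789415 (−14.1 ± 2.74 nt). Without U19 137 peaks had a changed mean start, and leaving out any other library left 4 to 6 of them.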

How the data were processed

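The authors prepared nAnT-iCAGE libraries from total RNA, sequenced single-end reads, mapped them to Rnor_6.0 and deposited whole-number counts of rescued tags per position and per tag cluster, without normalization, which were used here. The 42 normalised columns beside them were not used. The paper names Trimmomatic and STAR, the submitters' processing notes name Trimmomatic 0.38, BWA and HISAT2, so which aligner made the files is not settled here.

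Counts were tested with edgeR 4.0.16 in R 4.3.3 (quasi-likelihood test after filterByExpr and TMM, adjusted by Benjamini-Hochberg over all peaks), with the 21 libraries of a muscle in 7 groups sharing 1 estimate of the spread. Calls needed a log2 fold change beyond 1.25 in either direction with an adjusted p under 0.05. Levels are TMM-normalised CPM, given as mean ± SD over 3 rats, and the SE of a log2 fold change is its size over the square root of F. The difference between muscles was an interaction over 42 libraries. Start positions were tested with limma 3.58.1. DESeq2 1.42.0 was an alternative. Python 3.11.15, numpy 2.4.6 and pandas 2.3.3 did the rest. The scripts were tested on simulated data.

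Named peaks were the 10 largest rises and falls and the 5 strongest of each by level, among called peaks with no overlap of groups and at least 10 CPM in a group, and the 5 largest start shifts in each direction. In EDL and for the difference between muscles no peak met the rule. Members, lists and rules were chosen with earlier results of these data known. Neither a genome nor gene models of Rnor_6.0 were used, so peaks are not paired with genes, no sequence is printed, and lists of marker genes were not used. Alternatives were other size factors, no filter, fewer libraries, removal of mitochondrial peaks, thinning of counts, lane and animal as blocks, other thresholds and leaving out each library. The depth limits low peaks, since 1 tag is 0.0959 CPM in R7 library U12 and 0.296 CPM in U19.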

Additional observations from a re-analysis of the deposited data

How the results depend on the processing

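The comparison of R7 and control in soleus called 412 peaks. The count stayed within 1.5 times of this with DESeq2 size factors in edgeR (426), with tag totals as library sizes (310), without the filter (408), without mitochondrial peaks (411), after thinning to the shallowest library (331), in all 42 libraries without lane (434) and with no fold change limit (608). It moved to 714 with DESeq2, to 0 with only the 6 libraries (1765 at an unadjusted p under 0.05) and to 0 with lane as a block. Without 1 library it ranged from 57 to 1041. With lane as a block 5 named peaks changed sign: chr10:53637914-53638263 (−3.93), chr10:53638398-53638488 (−1.63), chr2:184899849-184900090 (−1.21), chr2:266275441-266275666 (0.54) and chr17:76511386-76511662 (0.52). Each of these 5 had an edgeR adjusted p of 0.95 or more, and the median SE of this fit was 0.817. The other 25 kept their sign, with some changes larger and some smaller than in the main fit. For instance, chr1:164143784-164143910 was at −3.51 and chr2:196094719-196094813 at −0.19, against −2.48 and −2.51 in the main fit. No other alternative turned the direction of a named peak it tested (chrX:104733999-104734166 was not tested with only the 6 libraries), and DESeq2 called all 30. The cause of these changes was not tested.

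In EDL the count of 0 went to 1 with DESeq2 and stayed 0 without any 1 library (207 to 674 at an unadjusted p under 0.05). For the difference between muscles it was 0 with the animal as a replicate block (706 at an unadjusted p under 0.05), 13 with DESeq2 and 0 to 21 without 1 animal, with 1 without U8 and 21 without U19. No paired analysis was possible for the soleus comparison because the R7 and control rats share no animal number. The 21 start shifts became 16 at a minimum of 100 tags, 0 for the share of tags at the dominant position (443 at an unadjusted p under 0.05), and 4 to 137 without 1 library. The 34 runs of called peaks, an alternative count added after seeing the data, were 59 with DESeq2, 21 after thinning, and 3 to 90 without 1 library. In the chromosome 17 interval, also added, the 21 calls were 35 with DESeq2 and 13 after thinning. Depth limits peaks under about 1 CPM, where a library holds few tags.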
